A study of Rattus norvegicus with 35 samples.

Results

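Stellate cell and matrix genes were examined in rat liver around Lum, which encodes lumican, a small leucine-rich proteoglycan of collagen-rich matrix. The 10 genes were Lum, Dcn, Bgn, Fbln1, Col1a1, Col1a2, Col3a1, Timp1, Des and Acta2, of 14217 genes with a probe set of their own on the array. The list was selected on the measured spread of Lum, which was wide between rats given the same dose, so that spread is described below without a test. Every one of the 10 was measured, by 13 probe sets, of which Col1a1, Col1a2 and Fbln1 had 2 each. All rats were Harlan Sprague Dawley males aged 7 weeks when dosing began, and all were gavaged for 5 days with 5 ml/kg of corn oil. Vehicle rats had corn oil alone. The other groups had BTBPE in it, a brominated flame retardant, at 0.07 or 0.69 mg/kg, at 6.88 mg/kg, or at 68 and 680 mg/kg. There were 6 rats per group and 5 at 68 mg/kg, with 1 array per rat and the left lobe taken the day after the last dose. Values are log2 expression per probe set, and the number of arrays limits their precision. The 35 array medians lay between 4.71 and 4.79, and a value under the lowest of these medians is called dim here.

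Hepatic stellate cells lie between hepatocytes and the sinusoidal endothelium, where they store vitamin A. Together with portal fibroblasts and vascular smooth muscle they make most of the fibrillar matrix of the liver, which in a healthy organ is sparse and gathered in portal tracts, around central veins and in the capsule. After injury stellate cells become contractile, switch on Acta2, secrete type I and type III collagen and release Timp1, which keeps that matrix from being degraded. In RNA from whole tissue, fewer cells of a type and less RNA per cell cannot be told apart.

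The sequence just upstream of the transcription start is shown for the genes that RefSeq promoters of build GRCr8 listed. RefSeq entries matched 5 of the 10 genes, Lum, Col1a2, Timp1, Des and Acta2. Dcn, Bgn, Fbln1, Col1a1 and Col3a1 were not matched, so the motifs of Lum cannot be set beside those of Dcn. The 250 bases before the start are given on the gene's own strand, with capitals marking a match on either strand to a motif. The motifs searched were TATAAA for the TATA box, CCAAT for the CCAAT box, GGGCGG for the Sp1 site, TGANTCA for the AP-1 site, CAGACA for a Smad-binding element and the CArG box of serum response factor.
Lum, chr7:34245456-34245705, + strand: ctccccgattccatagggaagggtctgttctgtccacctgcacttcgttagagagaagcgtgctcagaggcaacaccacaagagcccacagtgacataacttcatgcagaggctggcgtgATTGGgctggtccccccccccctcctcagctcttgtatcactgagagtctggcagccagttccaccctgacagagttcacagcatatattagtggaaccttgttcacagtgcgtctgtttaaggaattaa
Col1a2, chr4:33518307-33518556, + strand: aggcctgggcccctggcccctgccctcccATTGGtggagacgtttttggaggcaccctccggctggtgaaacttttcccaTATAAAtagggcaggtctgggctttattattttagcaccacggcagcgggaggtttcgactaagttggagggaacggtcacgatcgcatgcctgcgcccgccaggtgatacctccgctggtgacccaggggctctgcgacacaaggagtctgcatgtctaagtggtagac
Timp1, chrX:3771123-3771372, - strand: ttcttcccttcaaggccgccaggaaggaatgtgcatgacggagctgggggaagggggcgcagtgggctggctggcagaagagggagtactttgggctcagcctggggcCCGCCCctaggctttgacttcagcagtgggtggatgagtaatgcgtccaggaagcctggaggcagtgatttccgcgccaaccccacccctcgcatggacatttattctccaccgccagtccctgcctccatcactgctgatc
Des, chr9:84299376-84299625, + strand: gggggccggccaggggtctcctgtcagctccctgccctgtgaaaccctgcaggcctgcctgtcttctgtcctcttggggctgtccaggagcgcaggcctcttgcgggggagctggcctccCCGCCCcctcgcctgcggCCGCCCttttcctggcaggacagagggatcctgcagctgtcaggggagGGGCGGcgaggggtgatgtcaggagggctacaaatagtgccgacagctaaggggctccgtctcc
Acta2, chr1:241172504-241172753, - strand: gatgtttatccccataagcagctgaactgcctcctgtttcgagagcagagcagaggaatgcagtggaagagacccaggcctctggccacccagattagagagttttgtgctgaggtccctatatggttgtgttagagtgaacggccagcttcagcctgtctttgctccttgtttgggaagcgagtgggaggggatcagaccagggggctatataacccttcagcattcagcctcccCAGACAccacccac
Lum had 1 CCAAT match, 130 bases before the start. Col1a2 also had a CCAAT match, 221 bases before its start, and a TATAAA match 170 bases before it. Timp1 had 1 GGGCGG match and Des had 3, and Acta2 had a CAGACA match 14 bases before the start. No TGANTCA match was found in these windows, and no CArG box in its strict form with no mismatch allowed. Of 33469 rat promoter windows of the same length, 34.0% held CCAAT, 12.9% TATAAA, 30.5% GGGCGG, 17.2% CAGACA, 6.34% TGANTCA and 1.5% a CArG box of the strict form. The matches describe letters only. In the same annotation Lum and Dcn are neighbours on chromosome 7, with 0 genes between them.

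Lum was the most variable of the 10 genes. Its log2 expression had a lowest, median and highest value of 3.35, 5.90 and 6.17 in vehicle rats, 2.60, 4.93 and 7.41 at 0.07 mg/kg and 3.41, 4.98 and 6.76 at 0.69 mg/kg. At 6.88 mg/kg these were 3.04, 5.02 and 6.89, and at 680 mg/kg 3.49, 5.22 and 6.31. The 5 rats at 68 mg/kg had 5.01, 5.64, 5.35, 6.08 and 6.27. All 6 groups overlapped, and both ends of the whole range came from the 0.07 mg/kg group, where replicate 6 was 28.0-fold above replicate 5. Every group except 68 mg/kg held at least 1 rat with dim Lum, 10 rats in all, and replicate 5 at 0.69 mg/kg, at 4.71, lay just above that limit. The SD of Lum around the dose means was 1.22, against a median of 0.139 over all genes, and 5 genes had a wider one. The values did not fall into separate clusters, since the widest step between neighbouring rats was 0.52.

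**Figure D1:**
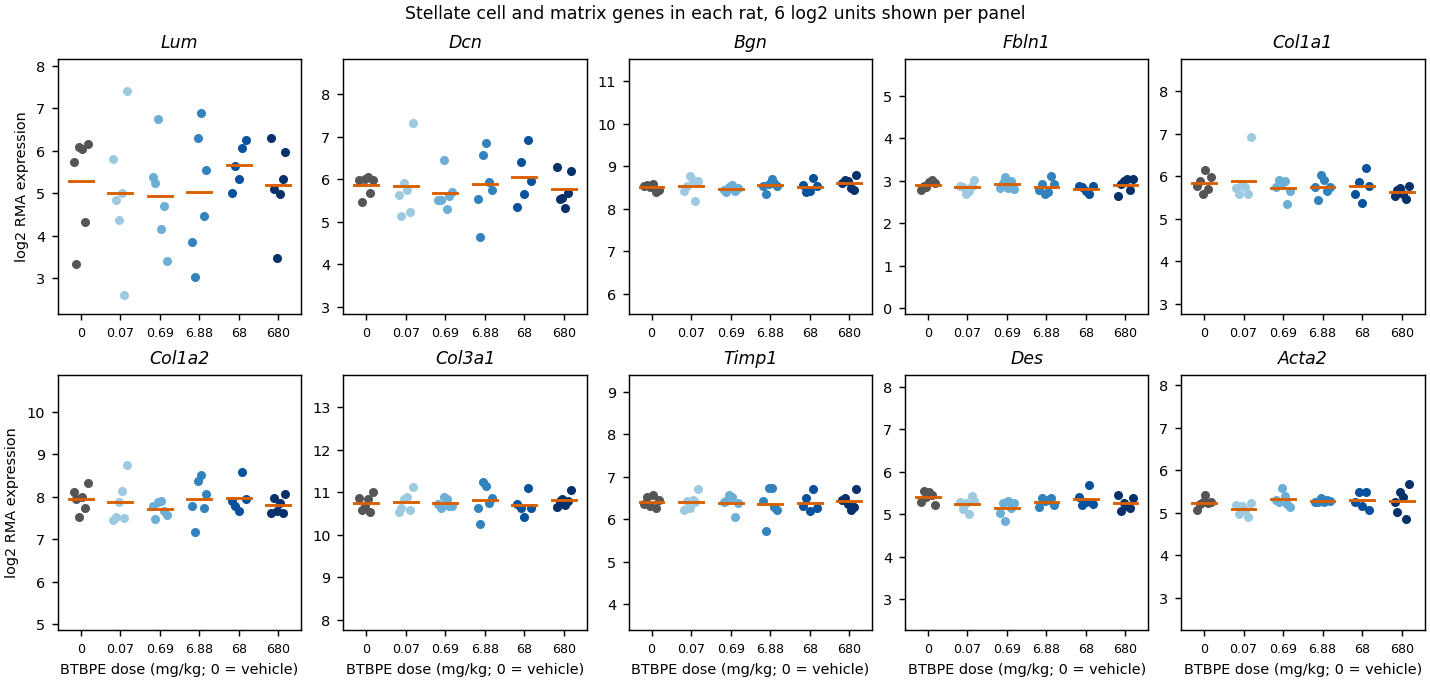
Log2 expression of each gene in each of the 35 rats (points) by dose of BTBPE in mg/kg, with 0 for vehicle and an orange bar at the group mean. Each panel spans 6 log2 units around its gene, and the points of Lum run from 2.60 to 7.41 with overlapping groups, while those of Bgn and Fbln1 stay close to their means.

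Dcn encodes decorin, a proteoglycan related to lumican that binds collagen fibrils and sequesters TGF-beta. Its log2 expression had a lowest, median and highest value of 5.45, 5.98 and 6.05 in vehicle rats, 5.12, 5.70 and 7.33 at 0.07 mg/kg and 5.31, 5.56 and 6.45 at 0.69 mg/kg. At 6.88 mg/kg these were 4.65, 5.84 and 6.85, and at 680 mg/kg 5.33, 5.61 and 6.28. The 5 rats at 68 mg/kg had 5.35, 6.40, 5.64, 6.93 and 5.96. The groups overlapped, replicate 6 at 0.07 mg/kg was again the highest rat, and replicate 2 at 6.88 mg/kg was the lowest. The SD around the dose means was 0.577, and 69 genes had a wider one. Biglycan, encoded by Bgn and also of this proteoglycan family, was steady. Its group means ran from 8.48 ± 0.06 at 0.69 mg/kg to 8.61 ± 0.13 at 680 mg/kg (SD, n = 6 each), and its SD around the dose means was 0.129. Fbln1 encodes fibulin-1, a glycoprotein of elastic fibres and basement membranes. It was dim in all 35 rats on both of its probe sets, with main values between 2.64 and 3.11, so that differences in it carry little information.

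The collagens were all above the dim level. Col1a1, which encodes the more abundant chain of type I collagen, had a lowest, median and highest value of 5.59, 5.82 and 6.14 in vehicle rats and 5.59, 5.73 and 6.92 at 0.07 mg/kg. At 680 mg/kg these were 5.47, 5.64 and 5.77, and at 0.69, 6.88 and 68 mg/kg all rats lay between 5.35 and 6.20. Replicate 6 at 0.07 mg/kg stood well above the next rat of its dose, at 5.82, and the groups overlapped. Col1a2, the partner chain, had a lowest, median and highest value of 7.53, 7.98 and 8.33 in vehicle rats, 7.45, 7.70 and 8.73 at 0.07 mg/kg and 7.47, 7.71 and 7.89 at 0.69 mg/kg. At 6.88 mg/kg these were 7.18, 7.92 and 8.51, and at 680 mg/kg 7.61, 7.76 and 8.07. Again replicate 6 at 0.07 mg/kg was the highest rat and replicate 2 at 6.88 mg/kg the lowest, and all groups overlapped. Col3a1, the chain of type III collagen, which forms the fine reticular fibres of the liver, ran from 10.25 to 11.24 over the 35 rats. Its lowest and highest rats were replicates 2 and 3 of the same dose, 6.88 mg/kg. The SD around the dose means was 0.287 for Col1a1, 0.356 for Col1a2 and 0.226 for Col3a1.

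Timp1, the secreted inhibitor of matrix metalloproteinases, ran from 5.72 to 6.74, and both extremes were the same 2 rats as for Col3a1. The SD around its dose means was 0.224. Des encodes desmin, the intermediate filament by which rat stellate cells are commonly identified, and Acta2 encodes smooth muscle actin, found in vessel walls and activated stellate cells. Des ran from 4.83 to 5.69 and Acta2 from 4.85 to 5.67. Their SDs around the dose means were 0.151 and 0.176, above the median of all genes, 0.139, with 5598 and 3296 genes wider. Acta2 was read from 1 probe set, because 5 others are annotated to Acta2 and the cardiac actin gene Actc1 together and were left out.

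BTBPE was then compared with vehicle at each dose. None of the 10 genes changed at any dose by limma's moderated test with Benjamini-Hochberg adjustment over 31042 probe sets, where 0 probe sets were called (0%). At an unadjusted p under 0.05 there were 1130 probe sets at 0.07 mg/kg, 981 at 0.69, 1438 at 6.88, 1205 at 68 and 1538 at 680 mg/kg, against 1552 by chance. All 5 comparisons share the vehicle rats. Lum averaged 5.20 ± 0.98 at 680 mg/kg and 5.29 ± 1.17 in vehicle rats (SD, n = 6 each). That is a fold of 0.940, with a 95% confidence interval of 0.378 to 2.34. At the lower doses the fold of Lum was 0.822 at 0.07 mg/kg, 0.788 at 0.69, 0.832 at 6.88 and 1.30 at 68 mg/kg. The interval at 68 mg/kg was the widest, 0.501 to 3.38, and changes of Lum within such intervals were not detectable with these rats.

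Dcn was 0.934-fold at 680 mg/kg relative to vehicle, with an interval of 0.605 to 1.44, and lay between 0.883-fold and 1.15-fold at the other doses. The collagens were measured more tightly. Col3a1 was 1.04-fold at 680 mg/kg relative to vehicle with an interval of 0.876 to 1.24, Col1a2 was 0.906-fold with 0.692 to 1.19, and Col1a1 was 0.864-fold with 0.694 to 1.07. Des had the smallest unadjusted p of the 10 genes at any dose, 0.00435 by limma at 0.69 mg/kg, with an adjusted p of 1.00. Des had a lowest, median and highest value of 4.83, 5.21 and 5.30 at 0.69 mg/kg, against 5.21, 5.43 and 5.55 in vehicle rats, so the groups overlapped. Its fold was 0.834 there, with an interval of 0.740 to 0.941, and between 0.890 and 0.975 at the other doses, all below 1 against the same vehicle rats. Over all doses together, limma's F test and the trend over dose rank also called 0 of 31042 probe sets, with 1194 and 1596 at an unadjusted p under 0.05.

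**Figure D2:**
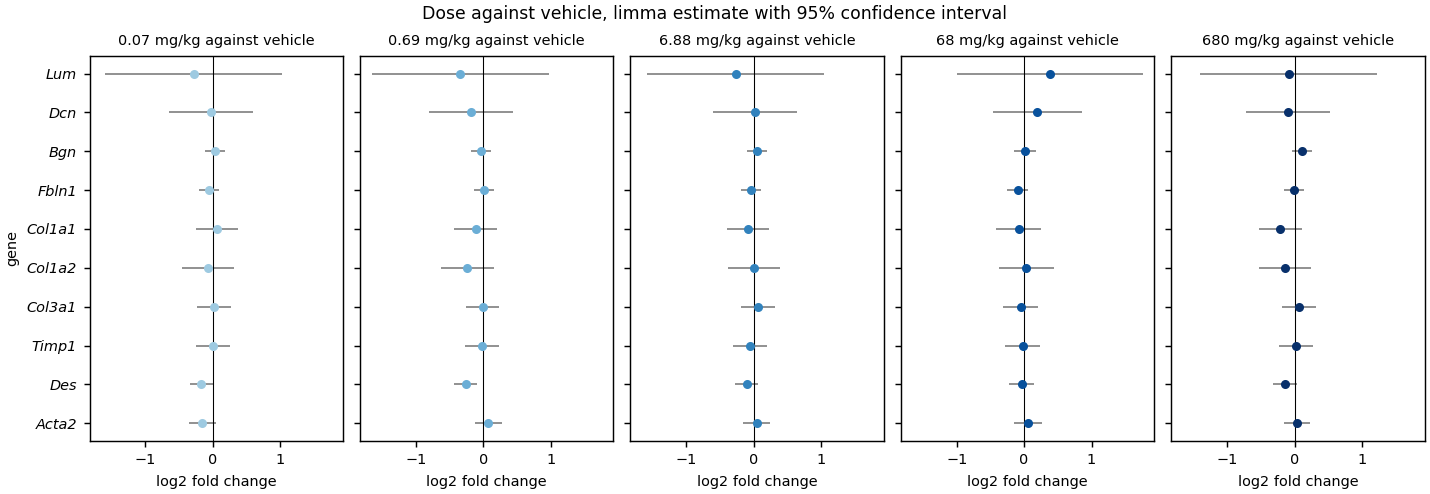
Log2 fold change of each gene at each dose relative to vehicle (points) with the 95% confidence interval of limma (lines), for 6 rats per group and 5 at 68 mg/kg. The intervals cross 0 except for Des at 0.69 mg/kg, whose adjusted p was 1.00, and they are widest for Lum and next widest for Dcn.

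The next question was whether other genes go with Lum among rats given the same dose. A limma model with 1 coefficient per dose and the Lum value as a covariate was fitted to every other probe set, so that dose means do not enter the slope. Dcn was the only probe set called among 31041, which is 0.00322%, and thus 1 of the other 9 genes listed here. It was higher by 0.36 ± 0.05 log2 units per log2 unit of Lum (SE, 35 rats), with an adjusted p of 0.00273 by limma. The correlation of the deviations of Lum and Dcn from their dose means was r = 0.77, with rho = 0.74. Shuffling Lum among rats of the same dose gave permutation p-values of 1e-05 for r, the smallest that 100000 shuffles can give, and 2e-05 for rho. Leaving out replicate 5 at 0.07 mg/kg and replicate 2 at 6.88 mg/kg, the rats farthest from the median of Lum, gave r = 0.72. Lum was dim in both of them, and in 10 of the 35 rats behind the slope and correlation, which limits the low end.

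Lum and Dcn were positively correlated in each of the 5 groups of 6 rats. The correlation was 0.99 in vehicle rats, with an exact two-sided permutation p of 0.0389, 0.79 at 0.07 mg/kg with an exact p of 0.0944 and 0.67 at 0.69 mg/kg with an exact p of 0.222. At 6.88 mg/kg it was 0.94 with an exact p of 0.0111, and at 680 mg/kg 0.72 with an exact p of 0.0528. Correlations are given for groups of 6 only, and the 5 rats at 68 mg/kg entered the pooled value. In vehicle rats the rank correlation was lower, 0.60, since 4 rats had similar values and the other 2, with dim Lum, were low in both genes. Rank correlations were lower still at 0.07 and 0.69 mg/kg, at 0.49 and 0.20, with exact p-values of 0.356 and 0.714 by permutation. They were 0.94 at 6.88 mg/kg and 0.83 at 680 mg/kg. The limma call of Dcn was lost without replicate 6 at 0.07 mg/kg, the highest rat for both genes, where the slope was 0.31 and the adjusted p 0.0584. It was also lost without the 2 rats farthest from the median, at a slope of 0.35 and an adjusted p of 0.0922. When single rats were left out, the number of probe sets called ranged from 0, without replicate 6 at 0.07 mg/kg, to 5, without replicate 3 at 680 mg/kg.

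The collagens had positive slopes on Lum that did not pass the threshold over all probe sets. The slope of Col3a1 was 0.11 ± 0.03 (SE) with r = 0.61 and rho = 0.52, an unadjusted permutation p of 0.00046 for r, and an adjusted p of 0.249 by limma. The slope of Col1a2 was 0.17 ± 0.04 with r = 0.59 and rho = 0.46, a permutation p of 0.00144 for r, and an adjusted p of 0.252 by limma. Col1a1 had a slope of 0.12 ± 0.04 with r = 0.52 and rho = 0.45, a permutation p of 0.00561 for r, and an adjusted p of 0.334 by limma. Without the 2 farthest rats these correlations were 0.54, 0.50 and 0.45. The second probe sets of Col1a2 and Col1a1 gave 0.57 and 0.52, close to the first ones.

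Within groups, the collagens followed Lum unevenly. At 6.88 mg/kg the correlation with Lum was 0.96 for Col3a1 and 0.97 for Col1a2, each with an exact p of 0.00556, and 0.87 for Col1a1 with an exact p of 0.0278. At 680 mg/kg it was -0.03 for Col3a1, 0.18 for Col1a2 and -0.30 for Col1a1, with exact p-values of 0.883, 0.800 and 0.594. In vehicle rats it was 0.76 for Col3a1 with an exact p of 0.0778, but 0.19 and 0.15 for Col1a2 and Col1a1, with exact p-values of 0.764 and 0.789. For Col3a1, Col1a2 and Col1a1 the correlations were 0.60, 0.68 and 0.78 at 0.07 mg/kg, and 0.42, 0.35 and 0.31 at 0.69 mg/kg. All exact p-values are unadjusted, and those of Col3a1 and Col1a2 at 6.88 mg/kg were the smallest of any gene and group. The difference of these correlations between groups was not tested. In an alternative chosen after the data had been seen, Col3a1 was added as a covariate. The slope of Dcn on Lum was then 0.23 ± 0.06 (SE), with an adjusted p over all probe sets of 0.954 by limma. In that fit the slope was 0.02 for Col1a2, 0.04 for Col1a1, 0.01 for Acta2 and near 0 for Timp1 and Bgn, at 0.0033 and -0.0029.

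Timp1 had a slope of 0.09 ± 0.03 on Lum (SE) with r = 0.48 and an adjusted p of 0.406 by limma. RNA quality moved with it: the difference between the 3 prime and 5 prime probe sets of Actb, which widens as RNA breaks, had r = -0.52 with Timp1 over 35 rats, at a permutation p of 0.00377. The same difference had r = -0.15 with Lum and -0.21 with Dcn. With it as a further covariate Timp1 had a slope of 0.08 on Lum and Dcn kept its call, at a slope of 0.36 and an adjusted p of 0.00604 by limma. Bgn and Acta2 had r = 0.37 and 0.28 with Lum, and adjusted p-values of 0.563 and 0.669 by limma. Without the 2 farthest rats the correlation of Bgn was 0.11. Des and Fbln1 did not go up with Lum, at r = -0.24 and -0.03 and adjusted p-values of 0.721 and 0.977 by limma.

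**Figure D3:**
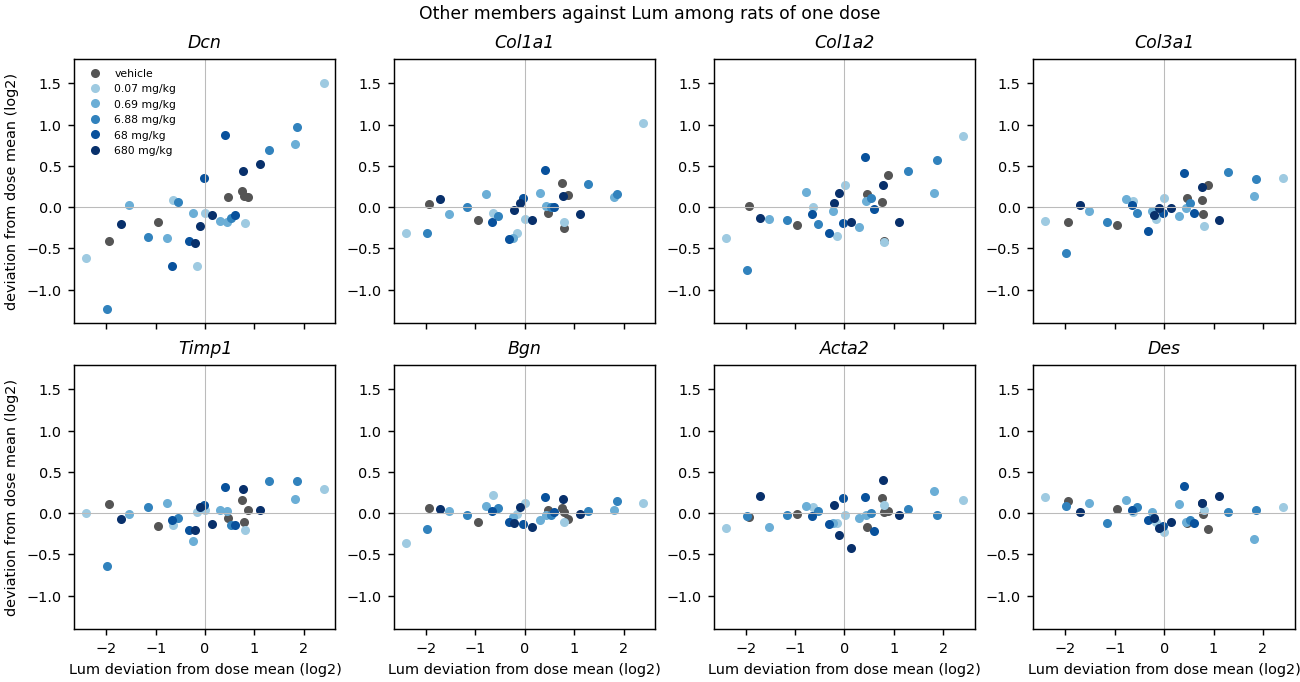
Deviation of each gene from its dose mean (vertical, log2) against the deviation of Lum from its dose mean (horizontal, log2), with 1 point per rat and colours for the 6 groups. Dcn rises with Lum at a slope of 0.36. The slopes of Col1a2, Col1a1, Col3a1 and Timp1, none of which passed the test, are 0.17, 0.12, 0.11 and 0.09, and those of Bgn, Acta2 and Des lie within 0.04 of 0.

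The genes were also set against each other. Of the 45 pairs among the 10 genes, 36 had a positive correlation of deviations from dose means over 35 rats. The tightest was Col1a2 with Col3a1, at r = 0.91 and rho = 0.88, whose products are separate collagens, and Col1a1 with Col1a2, the chains of 1 collagen, had r = 0.78. Dcn had r = 0.77 with Col3a1, as with Lum. Among Lum, Dcn, Col1a1, Col1a2, Col3a1 and Timp1, a set picked after the values were seen, all 15 pairs lay between 0.48 and 0.91. Bgn, outside that set by its r of 0.37 with Lum, had r = 0.64 with Col1a2, 0.63 with Col3a1, 0.53 with Dcn and with Timp1 and 0.48 with Col1a1. Acta2, at r = 0.28 with Lum, had r = 0.48 with Col1a1, 0.42 with Dcn, 0.38 with Timp1, 0.37 with Col3a1 and 0.32 with Col1a2. The 12 pairs of the 6 genes with Des or Fbln1 lay between -0.24 and 0.18. Replicate 6 at 0.07 mg/kg had the highest deviation of the 35 rats in Lum, Dcn, Col1a1 and Col1a2. The lowest in Dcn, Col1a2, Col3a1 and Timp1 was replicate 2 at 6.88 mg/kg. The array of that lowest rat also had the widest difference between the 3 prime and 5 prime probe sets of Actb, 1.37. The next widest was 1.31, and replicate 6 at 0.07 mg/kg had 1.26. Whether RNA quality had a part in the low values of that rat was not tested. The 2 probe sets of a gene had r = 0.88 for Col1a1 and 0.93 for Col1a2, but 0.36 for the dim Fbln1.

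**Figure D4:**
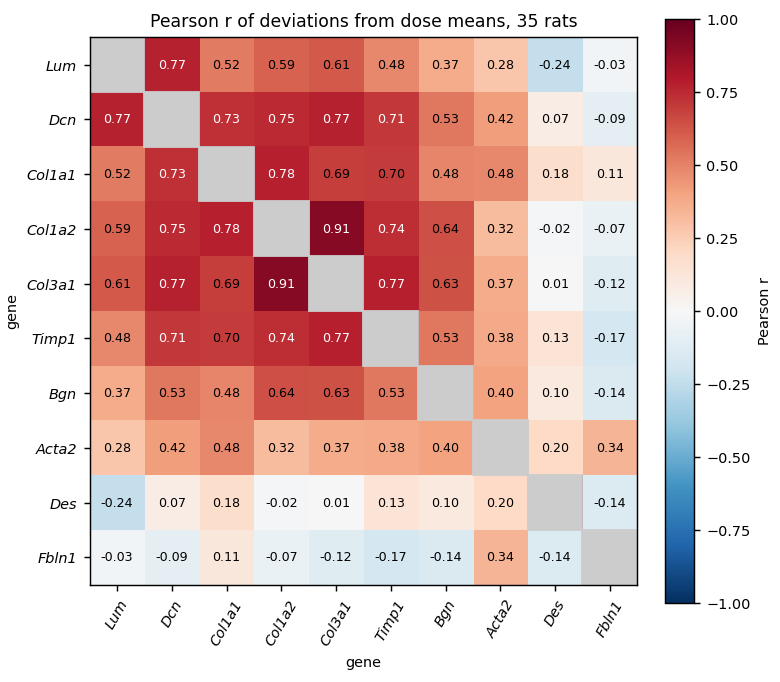
Pearson correlation of deviations from dose means over 35 rats for each pair of genes, from blue at -1 to red at 1, with each value printed. The block of Lum, Dcn, Col1a1, Col1a2, Col3a1 and Timp1 holds values between 0.48 and 0.91, and the rows of Des and Fbln1 are pale.

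The same model was then fitted with Col1a1 in place of Lum. Of 31040 probe sets, 27 were called by limma, which is 0.087%, of which 26 went up with Col1a1 (0.0838%). By the brightest probe set of each gene, 18 named genes rose with Col1a1 and 1, Inmt, fell. Among the 10 genes, Col1a2, Dcn, Timp1 and Col3a1 were called. Col1a2 rose by 0.97 ± 0.14 log2 units per log2 unit of Col1a1 (SE), with an adjusted p of 0.00155 by limma. Dcn rose by 1.47 ± 0.24 with an adjusted p of 0.00360, Timp1 by 0.55 ± 0.10 with 0.0175 and Col3a1 by 0.55 ± 0.10 with 0.0185, all by limma. Lum had a slope of 2.21 ± 0.63 and missed the threshold, its adjusted p by limma being 0.301, and Bgn, Acta2, Des and Fbln1 were not called either. Listed genes called with Col1a1 were Tpm2 and Tagln, which are contractile genes of smooth muscle and fibroblasts, the proteoglycan gene Aspn, and Sparc, which encodes a collagen-binding glycoprotein. Mgp and Col6a1, named after their values were seen, were the other 2. Aspn was dim, with a mean of 3.27.

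Some of these calls were lost when single rats were left out, at slopes close to the full ones. Without replicate 6 at 0.07 mg/kg the slope of Dcn was 1.47, as with all rats, its adjusted p was 0.0931 by limma, and 42 probe sets were called. Without replicate 4 at 68 mg/kg the slopes of Col3a1 and Timp1 were 0.50 and 0.53, their adjusted p-values 0.104 and 0.0714 by limma, and 9 probe sets were called. Without replicate 3 at 68 mg/kg Col3a1 had a slope of 0.53 and an adjusted p of 0.0558 by limma, with 15 probe sets called, and without replicate 2 at 6.88 mg/kg 16 were called. With replicate 6 at 0.07 mg/kg and replicate 4 at 68 mg/kg both left out, 7 probe sets were called, Timp1 among them. The slopes were then 1.03 for Col1a2, 0.73 for Col3a1 and 1.33 for Dcn, with adjusted p-values of 0.133, 0.133 and 0.429 by limma.

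The genes whose deviations were most like those of Lum over the 35 rats, apart from Dcn, were Agtr1a at r = 0.73, Fhl1 at 0.70, S100a13 and C4bpb at 0.69, Med10 at 0.67, Frzb and Atp6v1e1 at 0.65, Klrg1 at 0.64 and Ptp4a2 at 0.63. Agtr1a encodes a receptor of angiotensin II, Fhl1 a LIM-domain protein of muscle, and Frzb a secreted inhibitor of Wnt signalling. None but Dcn was called, and the adjusted p by limma was 0.0773 for Agtr1a and 0.0688 for Fhl1. The correlations farthest below 0 were -0.67 for Zfp444, -0.64 for Krt23, -0.63 for Nanos3, -0.59 for Acadm and -0.58 for Ccser1. Krt23, Nanos3 and Ccser1 were dim, with means of 2.73, 3.85 and 3.02. All of these genes were ranked on the same rats, so their order is a description. At an unadjusted p under 0.05 there were 2713 probe sets for Lum, against 1552 by chance.

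Other genes of matrix and of liver cell types were read from 15 lists, of which 177 genes were measured. No gene of these lists was called with Lum by limma, and the counts of positive slopes are set against 7629 of all 14216 other genes, or 53.7%, with a median r of 0.02. Of 13 further collagen genes 12 had a positive slope on Lum, with a median r of 0.39, led by Col5a1 at r = 0.59, Col12a1 at 0.55 and Col8a1 at 0.52. Of 25 matrix glycoproteins and proteoglycans 21 were positive, with a median r of 0.21, and Sparc, Aspn and Ogn had r = 0.56, 0.55 and 0.49. Among 11 enzymes of collagen processing 7 were positive (median r 0.08), with Loxl2, a collagen cross-linking oxidase, at r = 0.61 and Pcolce, which aids procollagen cleavage, at 0.49. Of 12 matrix proteases and inhibitors 8 were positive (median r 0.16), Plau, Timp3 and Timp2 among them at r = 0.39, 0.36 and 0.34. In TGF-beta and PDGF signalling 9 of 13 were positive (median r 0.10), with Tgfb3 at r = 0.39 and Ccn2 at 0.26. Of the genes named here, Aspn, Col12a1 and Tgfb3 were dim, with means of 3.27, 4.55 and 4.55.

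Markers of the cells that could hold Lum transcripts had slopes of both signs. Of 14 stellate cell genes 9 had a positive slope, with Vim, an intermediate filament shared with many cells, at r = 0.56, Reln, a secreted protein of stellate cells, at 0.43 and Gfap, a filament of quiescent stellate cells, at -0.48. Gfap was dim, with a mean of 3.52, so its correlation carries little information. Of 14 portal fibroblast genes 8 were positive, with Dpt, a small matrix protein that binds decorin, at r = 0.45 and Pdgfra at 0.35, and with Eln, which encodes elastin, at -0.37. Of 11 smooth muscle genes 7 were positive, with Tpm2, Myl9 and Tagln at r = 0.63, 0.60 and 0.58. The smooth muscle genes with a negative slope were Myocd, Smtn, Cnn1 and Myh11, at r = -0.27, -0.25, -0.16 and -0.01. Of these Myocd and Cnn1 were dim, with means of 2.90 and 4.09. The median r was 0.11, 0.02 and 0.21 for the stellate, portal fibroblast and smooth muscle lists, and none of these genes passed the adjusted threshold.

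Genes of other compartments were read in the same way, and none passed the adjusted threshold. Among Kupffer cell and macrophage genes 13 of 14 had a positive slope, with r no higher than 0.27 for Csf1r, and 8 of 14 endothelial genes were positive, the medians being 0.09 and 0.12, with Pecam1 at r = 0.44 and Eng at -0.39. In blood Hbb and Alas2 had r = 0.45 and 0.41 and Slc4a1 had -0.14. Of the mesothelium of the liver capsule 3 of 7 genes were positive, as were 3 of 7 of cholangiocytes, 7 of 11 of hepatocytes and 4 of 8 of exocrine pancreas, with medians of -0.01, -0.05, 0.11 and -0.01. The mean of the mesothelial list lay between 4.71 and 5.62 over all rats, and that of the exocrine pancreas list between 4.36 and 4.67. The part of these cells in the spread of Lum was not tested.

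**Figure D5:**
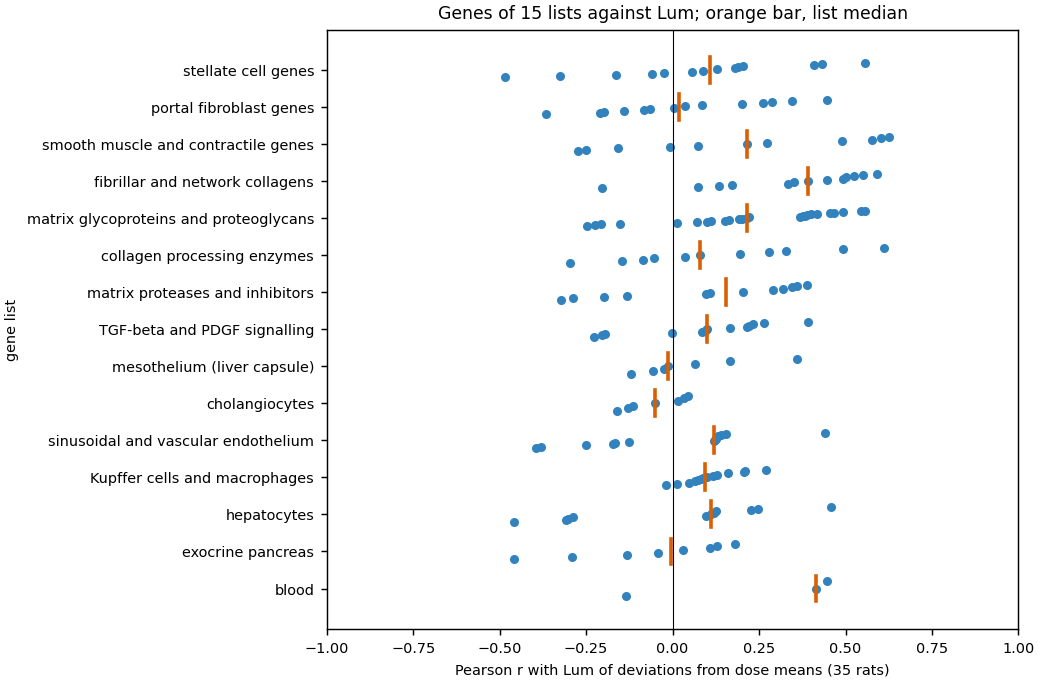
Pearson correlation with Lum of deviations from dose means over 35 rats (horizontal) for each measured gene (points) of 15 lists, with an orange bar at the list median. Collagens and blood lie farthest to the right, at medians of 0.39 and 0.41, the blood list with 3 genes, and cholangiocyte, mesothelial and pancreatic genes lie around 0.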

How the data were processed

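Liver RNA of 35 rats was hybridised to 1 Affymetrix 3 prime expression array each, using RNA whose integrity number, per the labels' protocols, was 7.0 or more. The authors used RMA and affy, per the submitters' processing notes, with versions not given in the sources used here. Deposited values are the authors' log2 expression per probe set, the base of the logarithm being taken from RMA's convention. RMA makes array distributions nearly equal and compresses differences between dim probe sets.

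Of 31099 probe sets 57 controls were left out, and 31042 were tested with no filter. Genes were named from the platform annotation, checked against RefSeq of GRCr8. Of these probe sets 20826 had 1 symbol, 436 several and 9780 none, and a gene is represented by its brightest probe set. Groups came from the labels, and each sample is counted as 1 rat. Whether same-numbered rats deviate together was checked: their correlations lay between -0.29 and 0.24 with a mean of -0.01. Same-numbered rats thus showed no shared deviation over the array as a whole. Such a correlation cannot show whether some genes share a batch. No 2 arrays were identical, and the highest correlation between arrays was 0.996.

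limma 3.58.1 in R 4.3.3 was fitted to all arrays with 1 coefficient per dose. Each dose was contrasted with vehicle, and slopes on Lum or Col1a1 were fitted within doses, all with Benjamini-Hochberg adjustment over all probe sets and a threshold of 0.05. The submitters' design names R/maanova, which was not used here. Permutation p-values for correlations come from 100000 shuffles within doses, and within single groups from all orders. The scripts were tested on simulated data. Alternatives were other normalisations, filters, priors and covariates, the other probe set, a replicate block and leaving out rats.

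The genes and lists were chosen with earlier results of these data known. Named genes are the 10 genes, up to 3 genes per list with the smallest p for Lum, and the 10 genes most and 5 least like Lum. The smooth muscle genes with a negative slope on Lum were named after their values were seen.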

Additional observations from a re-analysis of the deposited data

Results flagged for a closer look

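For each of the 10 genes in each group of 5 or 6 rats, the highest and lowest value was tested for a gap to the other rats by Dixon's criterion, which chance passes in about 1 in 20 groups. Of 60 such tests 4 passed, against 3 by chance. At 0.07 mg/kg replicate 6 stood far above the other rats in Dcn, at a log2 expression of 7.33 with the next rat at 5.92. The same rat stood far above the others in Col1a1, at 6.92 with the next rat at 5.82. At 0.69 mg/kg replicate 3 was far above the others in Dcn, at 6.45 with the next rat at 5.70. Replicate 5 of that dose was far below the others in Timp1, at 6.05 with the next rat at 6.38.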

How the results depend on the processing

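No probe set was called for any dose, any dose together or the trend under any alternative run. For the association with Lum, 1 probe set was called as reported. There were 2 without the dose covariate, 3 with median-centred arrays, with dim probe sets left out or with an intensity trend and robust prior, and 0 without the 2 farthest rats or, chosen after the data were seen, with Col3a1 as a covariate. Leaving out single rats gave 0 to 5, with 2 without replicate 3 at 0.69 or replicate 5 at 680 mg/kg and 3 without replicate 6 at 0.69 or replicate 1 at 680 mg/kg. Dcn was called in 41 of 45 alternatives, with slopes from 0.23 to 0.39. Most of these left out 1 of the 35 rats and so shared nearly all of their data. The call was lost without the 2 farthest rats and with a replicate block, at adjusted p-values of 0.0922 and 0.128 by limma. It was also lost with Col3a1 as a covariate and without replicate 6 at 0.07 mg/kg, at 0.954 and 0.0584. For the association with Col1a1, 27 probe sets were called as reported, 16 with the other probe set of Col1a1, 7 without the 2 farthest rats and 9 to 42 when single rats were left out. With the other probe set, Col3a1 and Timp1, each with a slope of 0.45, were not called, at adjusted p-values of 0.0722 and 0.0689 by limma. Lum has no other probe set.

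Same-numbered rats showed no shared deviation over the array as a whole, but a link confined to some genes was not tested. With the replicate number as a block, 0 probe sets were called for each dose, for any dose, for the trend and for Lum, and 14 for Col1a1. Under that block Dcn, with a slope of 0.33, was not called for Lum, nor were Col3a1 and Timp1, with slopes of 0.46 and 0.53, for Col1a1. With Col3a1 as a covariate the slopes on Lum were 0.02 for Col1a2, 0.04 for Col1a1, 0.01 for Acta2, 0.0033 for Timp1 and -0.0029 for Bgn, in place of 0.17, 0.12, 0.04, 0.09 and 0.04. The causes of these changes were not tested. Differences in dim genes, Fbln1 above all, are limited by signal over background.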
